A study of Caenorhabditis elegans with 10 samples.

Results

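The transcripts described are those of 10 Caenorhabditis elegans genes for basement membrane components, out of 20222 genes in the count tables. They were taken by gene name. They comprise the type IV collagens emb-9 and let-2, the laminin subunits epi-1, lam-1, lam-2 and lam-3, the perlecan gene unc-52, the nidogen gene nid-1, the type XVIII collagen gene cle-1 and the SPARC gene ost-1. All 10 names were found, and all 10 genes passed the filter on low counts that left 12499 genes for testing. They were read in whole dauers, the arrested larval stage. The groups were daf-2(e1370), a temperature-sensitive mutant of the insulin-like receptor, and chd-7(gk290);daf-2(e1370), called the double mutant below, which also carries an allele of the chromatin remodeller CHD-7. Each genotype had 5 libraries, from animals held at 25°C for 10 days from synchronized eggs. Both groups therefore carry the daf-2 allele, and no wild-type group entered the comparison. Whether each library is a separate culture is not in the labels. The p-values therefore rest on library-to-library spread that may be technical in part.

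A basement membrane is a thin extracellular sheet that lines muscle, epidermis, gut, pharynx and gonad and holds them to one another. Laminin trimers of an alpha, a beta and a gamma chain polymerise at cell surfaces and start the sheet. Type IV collagen trimers, built from more EMB-9 than LET-2 chains, give it tensile strength, and perlecan, nidogen, type XVIII collagen and SPARC attach to or modify these networks. In C. elegans most type IV collagen is made by body wall muscle and then spreads to other tissues, so a transcript level in a whole animal does not show where the protein lies.

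Total gene counts ranged from 7331885 to 14997608 reads per library. The chd-7 transcript was at 207 to 263 CPM (normalised read counts, scaled to library size by TMM) in daf-2 and at 234 to 283 CPM in the double mutant, with an adjusted p of 0.137, and a count over a whole gene does not show a partial deletion. The daf-2 transcript was at 141 to 190 CPM in daf-2 and at 174 to 226 CPM in the double mutant. It was called higher (edgeR quasi-likelihood test, adjusted p = 0.033), with overlapping ranges, and this call was not followed over the alternative settings. No dauer marker listed was at 0 throughout, though scl-1 did not pass the filter. Their summed level was 5333 to 5872 CPM in daf-2 and 4271 to 5624 CPM in the double mutant. The sum hides a split in daf-2. The mean log2 CPM of the 9 tested markers was 7.61 to 7.82 in replicates 1 to 3, and 6.98 and 6.94 in replicates 4 and 5. In the double mutant it was 6.82 to 7.32. Some libraries of a genotype were much closer than others. Measured as chi-square per degree of freedom between count vectors, the distance was 4 for daf-2 replicates 4 and 5, 5.92 for double-mutant replicates 1 and 2, 6.84 for double-mutant replicates 3 and 4, and at least 17.2 for the other pairs. A set of 3 libraries stood apart in yolk or germline transcripts. The yolk gene vit-2 was at 55.7 and 52.9 CPM in daf-2 replicates 2 and 3 and at 1.57 to 3.41 CPM in the other daf-2 libraries, and germline markers summed to 612 CPM in double-mutant replicate 4 and to 115 to 170 CPM in the other double-mutant libraries.

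Most basement membrane transcripts were more abundant in the double mutant. Of the 10 genes, 6 rose (let-2, lam-1, lam-3, unc-52, cle-1 and ost-1), 1 fell (lam-2) and 3 (emb-9, epi-1 and nid-1) did not pass an adjusted p of 0.05. Thus 7 of 10 changed, where 36.2% of all tested genes did. Over all tested genes 17.9% were called higher and 18.3% lower. The libraries of the genotypes did not overlap for 7 of the 10 genes (emb-9 and the 6 that rose), against 22.7% of tested genes. For emb-9 this rested on a narrow gap and on the scaling, as given below. The median log2 fold change was 0.70 for the 10 genes and -0.03 over all tested genes. Adjusted p-values come from edgeR's quasi-likelihood test with Benjamini-Hochberg adjustment over all tested genes, and an interval without another name is the 95% interval of the log2 fold change.

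**Figure D1:**
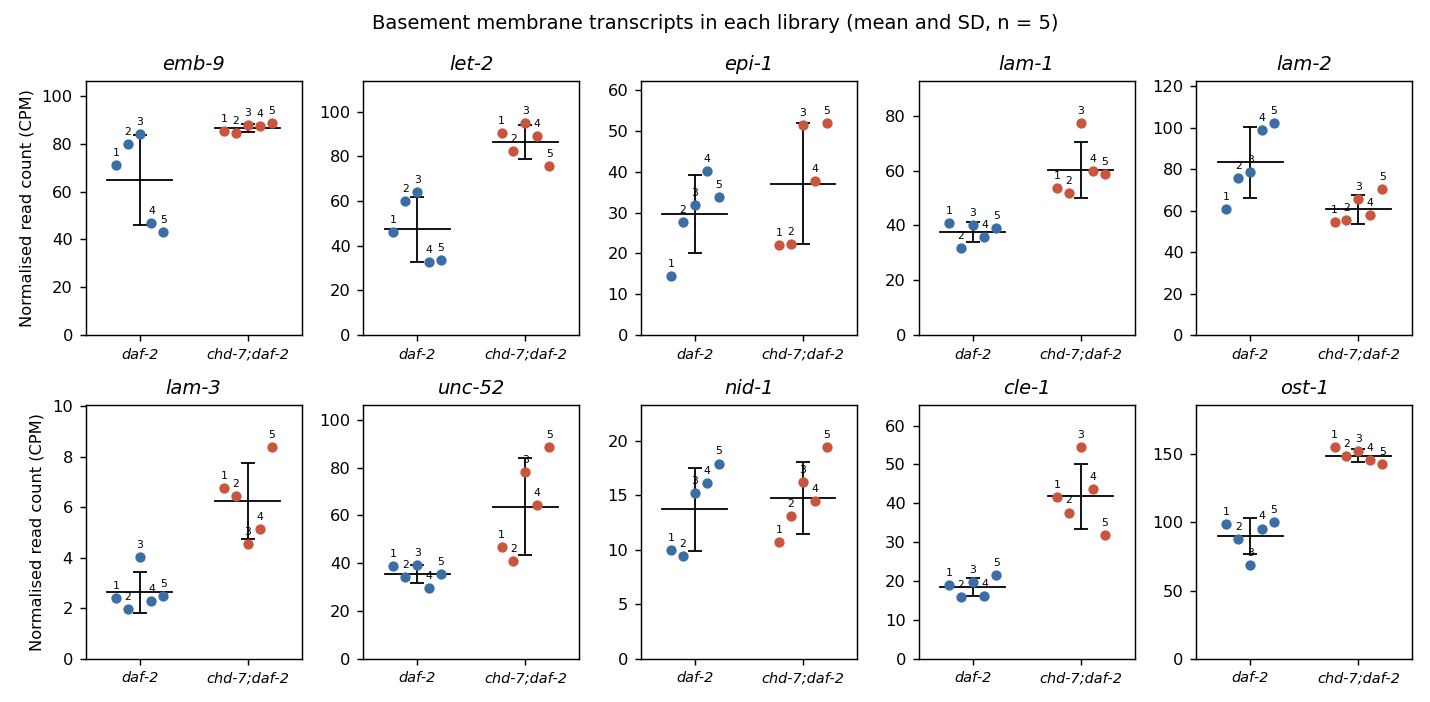
Normalised read counts (CPM, linear axes from 0) of the 10 genes in each library, by genotype, with the replicate number above each point, the mean as a line and the SD as a bar (n = 5). The double-mutant points lie above all daf-2 points for emb-9 (only just), let-2, lam-1, lam-3, unc-52, cle-1 and ost-1, and mostly below them for lam-2.

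In TMM-scaled CPM both type IV collagen transcripts were higher in every double-mutant library than in every daf-2 library, emb-9 only just. The amounts were unequal, and of the pair only let-2 passed the test. The alpha1 chain gene emb-9 lies on chromosome III from 9336881 to 9344447 (WBcel235, minus strand). In daf-2 replicates 1 to 5 emb-9 was at 71, 79.8, 83.9, 46.9 and 42.9 CPM. The double-mutant values were 85.2, 84.6, 87.9, 87.5 and 88.6 CPM. The double-mutant libraries were thus almost level, while daf-2 replicates 4 and 5 stood well below the other 3. The lowest double-mutant library (84.6 CPM) was just above the highest daf-2 library (83.9 CPM). This gap is smaller than the counting error of 3.16% at the double-mutant mean, and it rests on the scaling. Relative to total gene counts, daf-2 replicate 3 (917 of 10107367 reads) lay above every double-mutant library. The highest of those was replicate 5 (1353 of 14997608 reads). The log2 fold change of 0.42 ± 0.18 (SE, interval 0.03 to 0.80) missed the threshold (adjusted p = 0.0821). Over the alternatives its adjusted p ran from 0.0212 to 0.292. It was under the threshold with limma-voom (0.0306), without daf-2 replicate 3 (0.0444) and without the 3 libraries set apart (0.0212).

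The alpha2 chain gene let-2 lies on chromosome X from 16380597 to 16389340 (minus strand). Its levels in daf-2 replicates 1 to 5 were 46.3, 60.2, 64.1, 32.6 and 33.8 CPM, and those in the double mutant 90.3, 82.5, 94.8, 89.2 and 75.7 CPM. Replicates 4 and 5 were again the lowest of daf-2, and every double-mutant library lay above every daf-2 library. Means were 47.4 ± 14.6 CPM in daf-2 and 86.5 ± 7.45 CPM in the double mutant (SD, n = 5), a rise of 0.87 ± 0.19 on the log2 scale (adjusted p = 0.00452).

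Because let-2 moved further than emb-9, their ratio differed between genotypes. Per kilobase of exon, the level of emb-9 was 1.59, 1.38, 1.36, 1.49 and 1.32 times that of let-2 in daf-2 replicates 1 to 5. The same ratio was 0.980, 1.07, 0.963, 1.02 and 1.21 in the double mutant. The alpha1 transcript therefore exceeded the alpha2 transcript in every daf-2 library, and the transcripts were near parity in the double mutant. These ratios are of RNA and rest on annotated exon lengths, and protein chains were not measured. The mean log2 ratio was 0.51 ± 0.11 in daf-2 and 0.06 ± 0.13 in the double mutant (SD, n = 5). The difference of -0.45 had a two-sided exact permutation p of 0.00794, the smallest that 5 against 5 libraries allow, or 0.0159 adjusted over the 4 ratios tested. Without the 3 libraries set apart and with the closest pairs summed it was -0.48 and -0.43, and the adjusted p of 0.114 did not pass in either of these designs of 4 against 3.

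The laminin genes did not move as a unit. The beta chain gene lam-1 (chromosome IV, 5173332 to 5183746, plus strand) rose, the gamma chain gene lam-2 (chromosome X, 7143846 to 7151239, minus strand) fell, and of the alternative alpha chains lam-3 rose and epi-1 did not pass the threshold. In daf-2, lam-1 was at 40.7, 31.9, 40.1, 35.9 and 39 CPM. In the double mutant it was at 53.6, 51.7, 77.2, 59.7 and 58.7 CPM, with replicate 3 the highest and no overlap with daf-2. The log2 fold change was 0.68 ± 0.12 (adjusted p = 0.00157).

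For lam-2 the daf-2 libraries held 60.9, 75.5, 78.5, 98.8 and 102 CPM, and the double-mutant libraries 54.3, 55.4, 65.5, 57.8 and 70.3 CPM. The highest values were in daf-2 replicates 4 and 5, the libraries with the least emb-9 and let-2, and the ranges of the genotypes overlapped. The transcript fell by 0.45 on the log2 scale (SE 0.14, interval -0.77 to -0.14, adjusted p = 0.0298). This call was lost without any 1 of double-mutant replicates 1, 2 and 4 (adjusted p = 0.0730, 0.0704 and 0.0578) or daf-2 replicates 4 and 5 (0.0651 and 0.0681). It was also lost without the 3 libraries set apart (0.0777) and when the closest library pairs were summed (0.205).

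A laminin trimer takes 1 beta and 1 gamma chain, and in C. elegans each is encoded by a single gene. Per kilobase, lam-1 was at 0.684, 0.433, 0.523, 0.372 and 0.392 times the level of lam-2 in daf-2 replicates 1 to 5. Double-mutant libraries had lam-1 at 1.01, 0.955, 1.21, 1.06 and 0.855 times that level. The gamma transcript thus exceeded the beta transcript in all daf-2 libraries, and the ratio lay around 1 in the double mutant, with no overlap. The log2 ratio differed by 1.11 (exact permutation p = 0.00794, adjusted 0.0159), the largest of the 4 ratio differences. Without the 3 libraries set apart the difference was 1.11, and with the closest pairs summed 1.004, each with an adjusted p of 0.114. As for emb-9 to let-2, a call could hardly be kept in these designs.

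The alpha chains differ in where they act, EPI-1 being the more widespread and LAM-3 prominent in the pharynx and early membranes. The epi-1 gene (chromosome IV, 10666823 to 10679291, plus strand) varied strongly within both genotypes, at 14.4, 27.8, 31.9, 40.3 and 33.9 CPM in daf-2 and 22.1, 22.3, 51.5, 37.7 and 51.9 CPM in the double mutant. Double-mutant replicates 1 and 2, a close pair, were low, and replicates 3 and 5 were high. The log2 fold change was 0.32 ± 0.31, and its interval of -0.36 to 1.004 includes a doubling as well as a modest fall (adjusted p = 0.439).

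The lam-3 gene (chromosome I, 10608466 to 10621435, plus strand) was the least abundant of the 10. It stood on 19 to 44 reads per library in daf-2 (1.96 to 4.03 CPM, median 2.39) and on 47 to 128 reads in the double mutant (4.55 to 8.38 CPM, median 6.45). Replicate 3 was the highest daf-2 library and the lowest double-mutant library, and the genotypes did not overlap. The rise of 1.25 ± 0.24 on the log2 scale was the largest of the 10 (adjusted p = 0.00265). The ratio of epi-1 to lam-3 per kilobase was 5.08 to 14.9 in daf-2 and 2.75 to 9.51 in the double mutant. Its log2 difference of -0.96 missed the threshold (exact permutation p = 0.0635, adjusted 0.0847). Both alpha transcripts together stood at 0.223 to 0.629 times lam-1 per kilobase in daf-2 and at 0.295 to 0.553 times in the double mutant (log2 difference -0.23, exact permutation p = 0.468, adjusted 0.468).

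**Figure D2:**
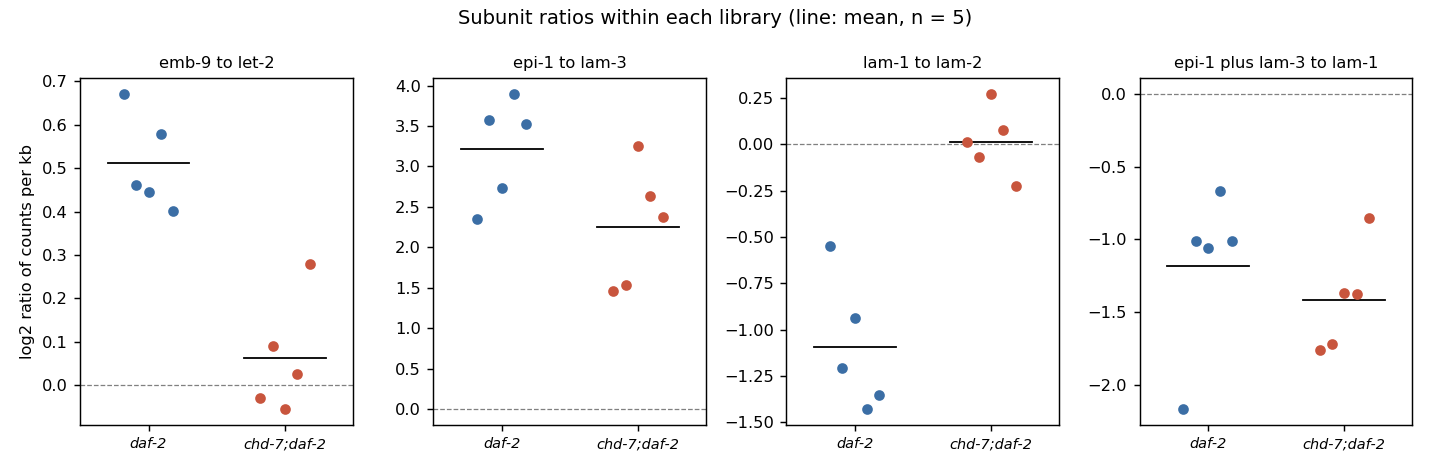
Log2 ratios of counts per kilobase within each library, for 4 pairs of transcripts or sums, by genotype (points: libraries, line: mean, n = 5, dashed line: equal levels). The emb-9 to let-2 and lam-1 to lam-2 ratios do not overlap between genotypes and lie near equal levels in the double mutant, while the ratios with epi-1 overlap.

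Perlecan, which links the membrane under the body wall muscle to the attachment complexes of that muscle, is encoded by unc-52 (chromosome II, 14647321 to 14684456, minus strand). In daf-2 it was at 38.9, 34.4, 39.2, 29.7 and 35.5 CPM. Double-mutant libraries held 46.7, 41.0, 78.1, 64.2 and 88.6 CPM. The daf-2 libraries were close together, and the double mutant split into a low pair (replicates 1 and 2) and 3 higher libraries, all of them above daf-2. Its rise on the log2 scale was 0.84 ± 0.20 (adjusted p = 0.00732). The annotation gives unc-52 17 transcripts, and a count over the gene does not tell them apart.

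Nidogen, which binds laminin and type IV collagen, did not pass the test. The nid-1 gene (chromosome V, 12910107 to 12917221, plus strand) ranged from 9.42 to 17.9 CPM in daf-2 (median 15.2) and from 10.7 to 19.4 CPM in the double mutant (median 14.5). The log2 fold change of 0.11 ± 0.21 had an interval of -0.35 to 0.58 (adjusted p = 0.705), and its sign turned without double-mutant replicate 5 or daf-2 replicate 2 (-0.02 and -0.0013).

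Type XVIII collagen, which carries an endostatin domain and is concentrated near synapses and in membranes, showed the lowest adjusted p of the 10. The cle-1 gene (chromosome I, 8705668 to 8724279, minus strand) was at 18.9, 15.9, 19.8, 16.2 and 21.5 CPM in daf-2 and at 41.5, 37.6, 54.5, 43.6 and 31.9 CPM in the double mutant. The groups were well separated, with replicate 5 the lowest double-mutant library. The rise was 1.18 ± 0.15 on the log2 scale (adjusted p = 0.000156). In the annotation, cle-1 shares 158 of its 4378 exonic bases with cdk-8 and 92 with a non-coding RNA gene, both on the other strand. The strand setting of the counting is not given in the sources used here, so reads from these bases may not be told apart. The overlaps of let-2, epi-1 and unc-52 with genes on the other strand were 14, 29 and 6 bases, and the other 6 genes had none.

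SPARC, a secreted glycoprotein that binds type IV collagen, had the most abundant transcript per kilobase of exon in every library. By CPM alone, lam-2 was above it in daf-2 replicates 3, 4 and 5, and emb-9 in daf-2 replicate 3. The ost-1 gene (chromosome IV, 1107396 to 1110872, plus strand) was at 98.6, 87.5, 68.6, 95.4 and 100.3 CPM in daf-2, where replicate 3 was the lowest. In the double mutant it was at 155, 148.7, 152, 145.3 and 142.9 CPM. These 5 values spanned a narrow range far above daf-2. The rise was 0.72 ± 0.11 on the log2 scale (adjusted p = 0.000619).

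**Figure D3:**
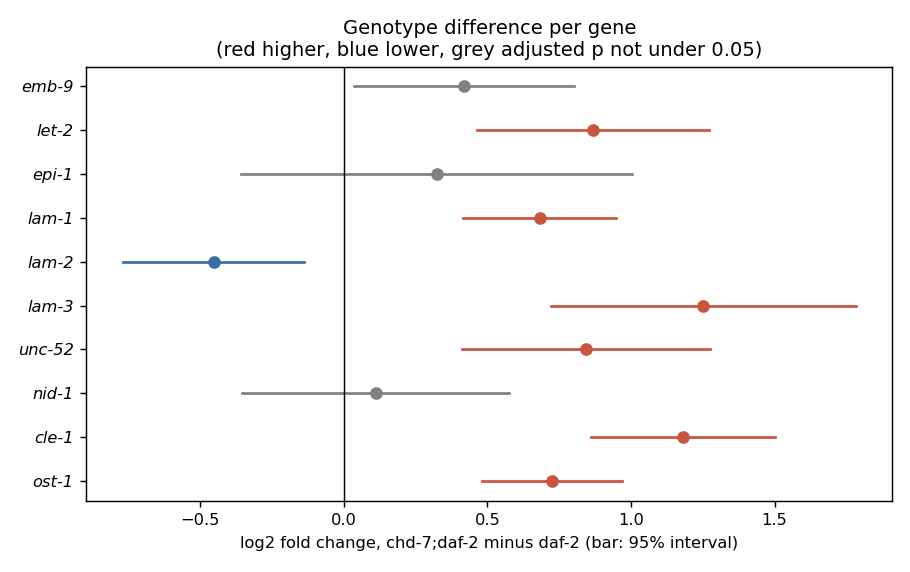
Log2 fold change (double mutant minus daf-2) of each of the 10 genes with its 95% interval. The largest rises are in lam-3 (1.25) and cle-1 (1.18), lam-2 alone lies below 0 (-0.45), and the intervals of epi-1 and nid-1 cross 0.

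Compared per kilobase of exon, the levels fell into a similar order in both genotypes, with ost-1 at the top and lam-3 at the bottom. In daf-2, ost-1 stood at 78.1 ± 11.3 CPM per kb (SD, n = 5), followed by lam-2 (13.8 ± 2.83), emb-9 (11.6 ± 3.37), let-2 (8.14 ± 2.497) and lam-1 (6.36 ± 0.618). From lam-2 to lam-1 each gene overlapped the next in range. Then came cle-1 (4.21 ± 0.540), apart from its neighbours on both sides, and nid-1 (2.73 ± 0.760), epi-1 (2.64 ± 0.858) and unc-52 (2.49 ± 0.272), which overlapped. The lowest was lam-3 (0.278 ± 0.0852). Double-mutant ost-1 was at 129 ± 4.23 CPM per kb. Next were emb-9 (15.5 ± 0.311), let-2 (14.9 ± 1.28), lam-1 (10.2 ± 1.71), lam-2 (10.0 ± 1.14) and cle-1 (9.55 ± 1.91). From emb-9 to cle-1 each gene overlapped the next in range, let-2 (from 13) and lam-1 (to 13.09) only just. Lower down were unc-52 (4.47 ± 1.42), epi-1 (3.30 ± 1.31) and nid-1 (2.94 ± 0.656), which overlapped, and last lam-3 (0.661 ± 0.1585). The lam-2 transcript was at place 2 in daf-2 and at place 5 in the double mutant. Exonic lengths count all annotated isoforms together, which lowers the per-length level of a gene whose transcripts omit exons, such as unc-52.

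**Figure D4:**
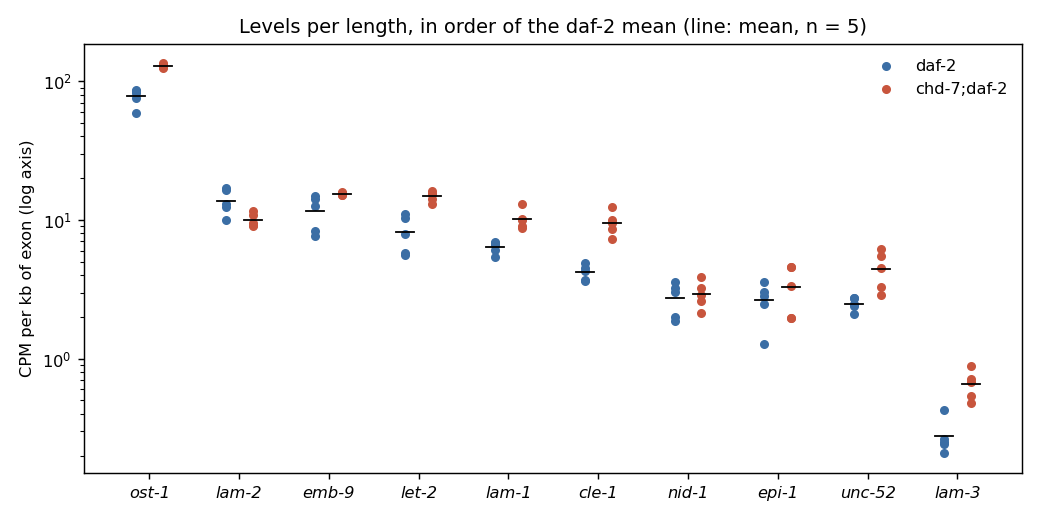
Level per kilobase of exon (CPM per kb, log axis) of each gene in every library, ordered by the daf-2 mean (line: mean, n = 5). The ost-1 points lie far above the rest (78.1 and 129 on average), lam-3 lies lowest, and lam-2 is the gene whose double-mutant mean is under its daf-2 mean.

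The spread between libraries of a genotype differed from gene to gene. The coefficient of variation of emb-9 was 29.1% in daf-2 and 2.01% in the double mutant, where counting error alone at its mean of 1001 reads gives 3.16%. For let-2 it was 30.7% and 8.61%, and for ost-1 14.4% and 3.28%. For unc-52 the order was opposite, with 10.9% in daf-2 and 31.7% in the double mutant, and epi-1 was variable in both (32.5% and 39.8%). The difference in spread was not tested.

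Within daf-2 the transcripts split the libraries in opposite ways. Replicates 4 and 5 were lowest in emb-9 and let-2 and highest in lam-2, epi-1 and nid-1 (nid-1 at 16.2 and 17.9 CPM, against 9.42 to 15.2 CPM). They were also highest in transcripts for the enzymes that hydroxylate collagen chains in the endoplasmic reticulum, which act on cuticle collagens too. The prolyl hydroxylase gene phy-2 was at 47.4, 79.4, 63.5, 347 and 285 CPM in daf-2 replicates 1 to 5, and dpy-18 at 45.7, 51.3, 48.7, 132.9 and 133.6 CPM. The lysyl hydroxylase gene let-268 was at 10.5, 16.2, 15.1, 35.1 and 33.4 CPM. The pattern was not particular to these enzymes. Among other genes for collagen folding, secretion and cross-linking, pdi-2, pdi-6, pxn-1, pxn-2, sft-4 and tmem-131 were highest there too. In pdi-1, pdi-3 and tmem-39 this was not so. The whole list summed to 3013 and 2945 CPM in replicates 4 and 5, and to 2161 to 2481 CPM in the other daf-2 libraries. Replicates 4 and 5 are the closest pair of libraries, and whether they share a culture was not tested.

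**Figure D5:**
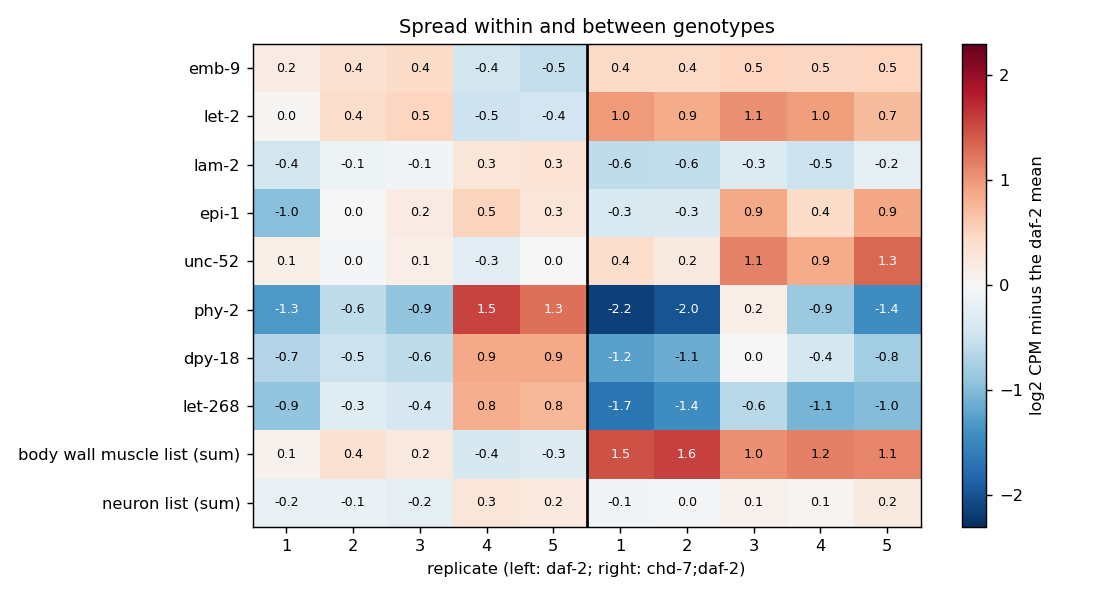
Log2 CPM of selected transcripts and of 2 marker sums in each library, minus the daf-2 mean (left of the line daf-2, right the double mutant, numbers in the cells are the values). In daf-2 replicates 4 and 5, emb-9, let-2 and the muscle sum are low while lam-2, phy-2, dpy-18 and let-268 are high, and double-mutant replicates 1 and 2 are low in epi-1 and the enzymes.

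Tissue markers moved with the genotypes. In whole animals a change in the share of a cell type and a change in RNA per cell cannot be told apart. Of 27 body wall muscle markers, all tested, 21 rose and none fell (median log2 fold change 1.12), where 17.9% of all tested genes rose. Their summed level was 3011 to 4955 CPM in daf-2 and 8016 to 11517 CPM in the double mutant, with no marker at 0. In daf-2 it was lowest in replicates 4 and 5 (3011 and 3177 CPM), the libraries lowest in emb-9 and let-2. In the double mutant it was highest in replicates 1 and 2 (10778 and 11517 CPM), the libraries lowest in unc-52. Hypodermis and seam markers summed to 925 to 1180 CPM in daf-2 and 1212 to 1710 CPM in the double mutant, where 7 of 15 tested rose and none fell, and ceh-16 was at 0 throughout. Somatic gonad markers summed to 146 to 203 CPM and 201 to 212 CPM, with 2 of 4 tested higher and none lower, and none of the 8 at 0. The part of these markers in the basement membrane results was not tested.

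Among the basement membrane genes averaging 5 CPM or more, let-2 was the one most like emb-9 across libraries, and lam-1 the one most like unc-52. Likeness was Pearson's r of log2 CPM over the 10 libraries after each genotype's mean was subtracted, with emb-9 or unc-52 set against each of 9794 other genes averaging 5 CPM or more. Since emb-9 hardly varied in the double mutant, its order rests largely on the 5 daf-2 libraries. By this measure let-2 ranked 33rd for emb-9 (r = 0.93), and the other members ranked 3905th or lower. The closest genes were ark-1 (0.99), gem-4 (0.99), M03A1.8 (0.98), R09E10.13 (0.98) and cnc-11 (0.97). Without subtracting the genotype means they were cnc-11 (0.98), zig-11 (0.97), tag-96 (0.97), F11F1.1 (0.97) and W05B5.1 (0.97), and let-2 again ranked 33rd (r = 0.92). For unc-52 the closest were hex-4 (0.95), ketn-1 (0.94), pdi-1 (0.94), B0336.7 (0.91) and pph-6 (0.91), and lam-1 ranked 430th (r = 0.66). Without subtraction they were ketn-1 (0.98), unc-22 (0.94), pat-12 (0.93), dig-1 (0.93) and hsp-25 (0.92), and lam-1 ranked 27th (r = 0.88). Other pairs of members were also close after subtraction. The lam-2 transcript went with nid-1 (r = 0.86) and epi-1 (0.86), and epi-1 with nid-1 (0.80). For lam-1 itself cle-1 (0.74) was closer than unc-52.

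Genes that act with these components were read from 4 further lists. Among basement membrane receptors, 3 of 8 tested rose and none fell (median log2 fold change 0.25). The share called, 37.5%, was close to the 36.2% over all tested genes. The alpha integrin gene pat-2, which anchors body wall muscle to the membrane, rose from 22.5 ± 2.89 to 62.5 ± 4.91 CPM (log2 fold change 1.48 ± 0.11, adjusted p = 5.07e-06). Its beta partner pat-3 was at 51.6 and 61.4 CPM on average (log2 fold change 0.25 ± 0.10, adjusted p = 0.0816). The syndecan gene sdn-1, a cell-surface heparan sulphate proteoglycan, rose by 0.89 ± 0.12 (adjusted p = 0.000245), and the dystroglycan gene dgn-1 by 0.42 ± 0.10 (adjusted p = 0.00707, or 0.0671 with the closest pairs summed).

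Among other matrix proteins, 6 of 11 tested rose, where 17.9% of all tested genes did, and none fell (median log2 fold change 0.41). The papilin gene mig-6 rose from 101 ± 16.5 to 200.3 ± 34.9 CPM (log2 fold change 0.99 ± 0.15, adjusted p = 0.000549). The fibrillin-related gene fbn-1 (0.79 ± 0.21), the agrin gene agr-1 (0.64 ± 0.18) and the netrin gene unc-6 (0.33 ± 0.11) rose too (adjusted p = 0.0142, 0.0149 and 0.0326). All of these last 3 calls were lost with the closest pairs summed (0.0605, 0.0825 and 0.129), that of fbn-1 also without the 3 libraries set apart (0.0827). The unc-6 call was lost in most alternatives, among them the omission of any 1 of replicates 1, 2 and 3 of either genotype (0.0573 to 0.0795). The fibulin gene fbl-1 had a log2 fold change of 0.31 ± 0.17 and did not pass (adjusted p = 0.163).

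Of 12 tested genes for collagen folding, secretion and cross-linking, none rose and 2 fell, a smaller share called than the 36.2% over all tested genes (median log2 fold change -0.11). Levels of the lysyl hydroxylase gene let-268 averaged 22.1 ± 11.4 CPM in daf-2 and 9.08 ± 2.499 CPM in the double mutant, with overlapping ranges (log2 fold change -1.28 ± 0.34, adjusted p = 0.0135). The disulphide isomerase gene pdi-3 had a log2 fold change of -0.41 ± 0.11 (adjusted p = 0.0123). Both calls were lost when the closest pairs were summed (adjusted p = 0.0887 and 0.0696). The values of phy-2 (-1.46 ± 0.64) and dpy-18 (-0.82 ± 0.38) did not pass (adjusted p = 0.0964 and 0.109), although phy-2 did without double-mutant replicate 3 (0.0421).

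Of 15 matrix proteases and their inhibitors, 5 rose and 2 fell (median log2 fold change 0.20). This is 46.7% called, where 36.2% of all tested genes were, 17.9% higher and 18.3% lower. The matrix metalloprotease gene zmp-3 rose from 23.3 ± 4.28 to 54.7 ± 3.95 CPM (log2 fold change 1.23 ± 0.13, adjusted p = 5.17e-05), and zmp-1 by 0.51 ± 0.16 (0.0298). The ADAMTS genes adt-1 and adt-2 moved in opposite directions. The first rose by 0.75 ± 0.20 (adjusted p = 0.0133), and the second was at 81.3 ± 6.01 CPM in daf-2 against 37.3 ± 6.07 CPM (log2 fold change -1.13 ± 0.12, adjusted p = 6.03e-05). The metalloprotease inhibitor gene cri-2 rose by 0.43 ± 0.13 (0.0214), and zmp-6 fell by 0.86 on the log2 scale (0.0431). The calls of adt-1, zmp-1, cri-2 and zmp-6 were lost with the closest pairs summed (adjusted p = 0.0583, 0.180, 0.120 and 0.0508), and without the 3 libraries set apart for adt-1, cri-2 and zmp-6 (0.0687, 0.0669 and 0.258). That of cri-2 was also lost without any 1 of double-mutant replicates 1 and 2 and daf-2 replicate 3 (0.0514 to 0.0579), and that of zmp-1 without any 1 of double-mutant replicates 1, 2 and 3 and daf-2 replicates 4 and 5 (0.0505 to 0.0735). For zmp-6 any 1 library except double-mutant replicate 2 and daf-2 replicate 5 sufficed (0.0522 to 0.109).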

How the data were processed

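For each library the authors deposited raw read counts per gene. The submitters' processing notes name STAR 2.5.4a and HTSeq 0.9.1, besides FastQC 0.11.5 and DESeq2 1.20.0. For the build, annotation and strand setting, no entry is given in the sources used here. Reads outside genes (2.94 to 5.70%), ambiguous (2.07 to 2.30%) and with several alignments (5.53 to 11.2%) stayed out of library sizes and tests.

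The tests used edgeR 4.0.16 under R 4.3.3. After filtering, 12499 of 20222 genes remained by filterByExpr (minimum count 10, minimum total 15). The quasi-likelihood F test (robust, TMM scaling, no covariate) compared genotypes over all genes at an adjusted p of 0.05, and was tested on simulated counts. Ratios used a two-sided exact permutation test. Log2 CPM used a prior count of 2. Other settings tried were limma 3.58.1 (voom, quality weights), DESeq2 1.42.0, 3 other scalings, no filter, a stricter filter (5 CPM in 5 libraries), the replicate number as a factor, each library left out, 3 libraries left out and the closest pairs summed. Positions, lengths and overlaps came from the Ensembl 115 annotation of WBcel235, which need not be the one the authors counted on.

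The genes, lists and tests were chosen with earlier results of these data known. Named outside the 10 genes were chd-7, daf-2 and the 5 genes most like emb-9 and unc-52. Up to 4 called members of a list with the lowest p in each direction were named too. Further list members (pat-3, fbl-1, phy-2 and dpy-18) were named after their values were seen. Of the list genes ddr-2 and opt-2 had no matching name, and tmem-131, tmem-39, adt-3 and timp-1 were matched by RefSeq locus name. Intervals cover the spread between libraries, and counting error is included in it.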

Additional observations from a re-analysis of the deposited data

Results flagged for a closer look

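In 28 groups of 5 libraries (10 genes and 4 ratios in each genotype), 2 held a library that stood far from the other 4, with a gap above 0.71 of the group's range. Chance flags about 1 such group in 20. The first was lam-3 in daf-2 replicate 3, at 4.03 CPM (44 reads) against 1.96 to 2.49 CPM in the other daf-2 libraries (gap 0.746 of the range). The second was the ratio of both laminin alpha transcripts to lam-1 in daf-2 replicate 1, at -2.17 on the log2 scale against -1.06 to -0.67 in the others (gap 0.741 of the range). The epi-1 transcript was lowest of all libraries there, at 14.4 CPM.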

How the results depend on the processing

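The calls of let-2, lam-1, unc-52, cle-1 and ost-1 kept their direction and stayed under the threshold in all 20 alternatives, and that of lam-3 in the 19 that tested it, since the stricter filter removed it. The number of the 10 genes called was 6 to 8 over the alternatives, and 6 to 8 when each library was left out. The calls over all genes numbered 4523, ran from 3358 to 4617 with each library left out, and came to 2631 with the closest pairs summed, a fit on 4 against 3 units. Without any 1 library the log2 fold change of nid-1 ran from -0.024 to 0.22. The emb-9 to let-2 and lam-1 to lam-2 ratio differences ran from -0.50 to -0.41 and from 1.03 to 1.25 with each library left out. They were -0.48 and 1.11 without the 3 libraries set apart and -0.43 and 1.004 with the closest pairs summed. Both had an adjusted p of 0.114 there, in designs of 4 against 3 whose smallest single p is 0.0286. Adjusted over the 4 ratios, that p comes under 0.05 only if most of the ratios reach it. By sign flips of same-numbered pairs (replicate block) they were -0.45 and 1.11 (adjusted p = 0.125), a test whose smallest single p is 0.0625. With the replicate block 4764 genes and the same number of the 10 genes (7) were called. The block left the calls of zmp-6, unc-6 and cut-1 over the threshold (adjusted p = 0.0878, 0.0520 and 0.141). Deviations of same-numbered libraries correlated at 0.305, 0.325 and 0.24 for numbers 1, 2 and 5, where the daf-2 library's best match in the double mutant was its own number, and at -0.192 and -0.181 for numbers 3 and 4, where it was another. With that, the numbers were not taken to pair the libraries. Comparisons with an alternative were also counted for the other genes named with a log2 fold change and for chd-7, gei-3 and pqn-75. Of these, 461 kept the side of the threshold, 56 lost a call, 1 gained it and none changed sign. Depth limits lam-3 most, at 19 to 128 reads per library.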

Other observations

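Among the other markers in the same libraries, those of intestine and pharynx were called in both directions. Over all tested genes 36.2% were called, 17.9% higher and 18.3% lower. The share called was 58.3% for intestine, 66.7% for germline, 14.3% for neuron, 25% for pharynx and 22.2% for dauer markers. Neuron, pharynx and dauer markers thus had a smaller share called than all tested genes. With 2 called genes in each of these short lists, that difference was not tested. Of 12 tested intestine markers, 2 rose and 5 fell, and their sum was 1578 to 1790 CPM in daf-2 and 1239 to 1466 CPM in the double mutant. Among those that fell were the exchanger gene nhx-2 (log2 fold change -1.18 ± 0.12) and the intermediate filament gene ifb-2 (-0.86 ± 0.20). Those that rose were elt-7 (mean 5.86 CPM in daf-2 and 11.9 CPM in the double mutant) and ges-1 (6.07 and 9.98 CPM). The calls of elt-7 and ges-1 were not followed over the alternatives. Of 18 germline markers 12 fell and none rose. Their sum was 568 to 1368 CPM in daf-2 and 115 to 612 CPM in the double mutant, where replicate 4 was the highest. Of 14 neuron markers 2 rose and none fell, with sums of 4195 to 5910 CPM and 4608 to 5563 CPM. Of 8 tested pharynx markers 1 rose (gei-3) and 1 fell (pqn-75), with overlapping sums of 59.1 to 137 CPM and 103 to 177 CPM. Of 9 tested dauer markers none rose and 2 fell, the cuticlin gene cut-1 (-2.17 ± 0.74) and the small heat shock protein gene sip-1 (-1.92 ± 0.53). The cut-1 call was lost in most alternatives (adjusted p up to 0.166), among them the omission of any 1 library except daf-2 replicates 1 and 3, that of sip-1 without double-mutant replicate 1 (0.0503) and that of ifb-2 with the closest pairs summed (0.0853). The neuron sum was highest in daf-2 replicates 4 and 5 (5910 and 5687 CPM), the libraries with the most lam-2 and the least type IV collagen transcript.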
